A study of Mus musculus with 11 samples.

Results

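Ionotropic glutamate receptors and GABA-A receptors are the ion channels that fast excitatory and inhibitory transmitters open, and their subunits were followed here in ribosome pull-downs from hippocampal astrocytes of fed, fasted and ketogenic-fed mice. The members were chosen by name, as the 37 gene symbols of the AMPA (Gria), NMDA (Grin), kainate (Grik), delta (Grid) and GABA-A (Gabr) subunit families. The rule names no values of these genes, but it was chosen with earlier results of these data known. A subunit was measured where a probe set was paired with its symbol alone, which held for 30 of the 37 symbols and so for 30 of the 20259 genes tested. They were 4 AMPA, 5 NMDA, 5 kainate, 1 delta and 15 GABA-A receptor subunits. Gabrg1 and Grin3a were left out because their probe sets are shared with another gene, and the other 5 symbols were not analysed here.

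By the sample titles and the study's methods the pull-downs came from the hippocampus of Ribo-Tag mice, while its results text names forebrain astrocytes for the arrays. In these mice a tagged ribosomal protein was switched on by Aldh1l1-Cre, a recombinase whose promoter is active in astrocytes. The 4 fed samples came from mice on chow for 4 weeks, the 4 ketogenic samples from mice on a high-fat, low-carbohydrate ketogenic diet for 4 weeks, and the 3 fasted samples from mice without food for 18 h by the protocol, or 24 h by another label of the same samples. All 3 groups shared the Ribo-Tag and Aldh1l1-Cre alleles, and the study describes the pull-down mice as adult. Each sample was hybridized to its own exon array after amplification of the RNA, the labels number the samples of a diet as biological samples without naming the animals, and values are log2 values after RMA, the authors' background correction and normalization.

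Glutamate opens AMPA, NMDA and kainate receptors, which pass cations and depolarize the cell, while GABA opens GABA-A receptors, which pass chloride and in most adult neurons hold the cell back from firing. Each receptor is assembled from several subunits, and the choice of subunit sets where the receptor sits, how fast it closes and which drugs bind it. Most of these subunits are known from neurons, but Grin2c (the NMDA subunit GluN2C) and Gabra2, Gabrb1 and Gabrg1 (GABA-A subunits) are also known from astrocytes. The comparisons asked whether the subunit mRNAs bound to astrocyte ribosomes differed between diets used against epileptic seizures.

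Array quality and cell type markers bear on every value below. On the first 2 principal components fed array 2 and fasted array 2 lay away from the rest, and limma's array weighting gave them 0.251 and 0.458, against 1.03 to 1.43 for the other 9. Odorant receptor genes, which are silent in most tissues outside the nose, gave a reference for a gene that is not expressed, and the 95th percentile of 862 of them was 4.00 on the fed arrays. All 18 measured astrocyte markers lay above it, with a mean of 7.94 to 8.07 on the fed arrays, but so did all 12 neuron markers, with a mean of 7.32 to 7.45, which places neuronal RNA in the pull-downs too. The 9 oligodendrocyte markers, with a mean of 7.72 to 7.87 on the fed arrays, and the 7 microglia markers also lay above it. So did 7 of 8 oligodendrocyte precursor markers and 7 of 8 endothelial and mural markers. On the ketogenic arrays the astrocyte marker mean was 7.45 to 7.69, lower than on any fed or fasted array (7.85 to 8.05 on the fasted arrays). In such pull-downs fewer cells of a type, less RNA per cell and a larger share of RNA from other cells cannot be told apart.

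Of the 30 subunits, 22 lay above the odorant percentile on the fed arrays. The 8 at or below it were Grik1, Gabra6, Gabre, Gabrp, Gabrq and Gabrr1 to Gabrr3. Gabra6, known from cerebellar granule cells, read 2.45 to 2.71 on the fed arrays, and Gabrr1 to Gabrr3, the rho subunits known from the retina, had fed means of 3.90, 3.43 and 2.21. The spread within a diet was small for most subunits, with a median pooled SD of 0.13 against 0.16 for all genes. It was 0.63 for Grik4, 0.44 for Grik3, 0.36 for Gabra3 and 0.35 for Gabrq.

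On the ketogenic diet Grin2c fell 1.61-fold and Gabra5 rose 1.32-fold against the fed arrays, and no other subunit passed the test. These 2 of 30 subunits compare with 0.884% of all genes called in this comparison (limma, Benjamini-Hochberg adjusted p under 0.05 over all genes), of which 0.118% were called higher and 0.765% lower. Fasting gave no call among the 30 subunits, and 0.0% of all genes were called. Between fasted and ketogenic arrays no subunit was called, against 0.281% of all genes.

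Grin2c encodes GluN2C, an NMDA receptor subunit that gives channels with weak block by magnesium and that is known in the hippocampus mainly from astrocytes. Its value was 6.26, 6.17, 6.42 and 6.29 on fed arrays 1 to 4, 6.42, 5.89 and 6.41 on fasted arrays 1 to 3, and 5.63, 5.58, 5.72 and 5.46 on ketogenic arrays 1 to 4. All ketogenic arrays lay below all fed and fasted arrays, and fasted array 2 lay below the other fasted arrays and all fed arrays. The log2 difference of ketogenic from fed arrays was -0.69 (standard error 0.12, 95% interval -0.95 to -0.42, adjusted p = 0.0309 from limma), and an exact permutation test over the arrays gave p = 0.0286, the smallest it can give (two-sided). The call held without fed array 2 (-0.72, adjusted p = 0.0442), without ketogenic array 3 (adjusted p = 0.0382), and without fed array 2 and fasted array 2 together (-0.72, adjusted p = 0.0117 from limma). The call was lost when fed array 1, fed array 3, fed array 4, ketogenic array 1, ketogenic array 2 or ketogenic array 4 was left out, with adjusted p from 0.0574 to 0.11 and a log2 difference from -0.70 to -0.64. The methods' t-test, run per gene and adjusted over all genes, did not call Grin2c either (adjusted p = 0.0694). With replicate number as a block the call was lost too (adjusted p = 0.0575 from limma).

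The astrocyte markers moved with Grin2c. All 18 had a negative difference of ketogenic from fed arrays, with a median of -0.42, and 7 of the 18 were called lower. With each array centred on the mean of the astrocyte markers, which raised the difference of every gene by 0.49, Grin2c was at -0.20 (adjusted p = 0.0958 from limma) and was not called. Centred on the neuron markers instead, which lowered the difference of every gene by 0.15 (all-gene median -0.14), Grin2c was at -0.84 (adjusted p = 0.0173 from limma). The part of the astrocyte markers in the Grin2c result was not tested further.

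Grin1, which every NMDA receptor holds, was not analysed here, and none of the other 4 measured NMDA subunits passed the test. Grin2a and Grin2b, which carry most NMDA receptors of hippocampal neurons, had fed means of 6.36 and 6.88 and log2 differences of 0.15 and 0.17 on the ketogenic diet (adjusted p = 0.473 and 0.414 from limma). Their ketogenic values, 6.40 to 6.60 and 6.95 to 7.17, overlapped the fed values of 6.24 to 6.48 and 6.74 to 7.01. Grin2d, known from interneurons, was at 0.02 and Grin3b at 0.04. Of the 5 NMDA subunits 4 were above 0, but 3 were with array weights or when fed array 2, fed array 3, ketogenic array 1 or ketogenic array 4 was left out, and 1 was with arrays centred on the neuron markers.

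**Figure D1:**
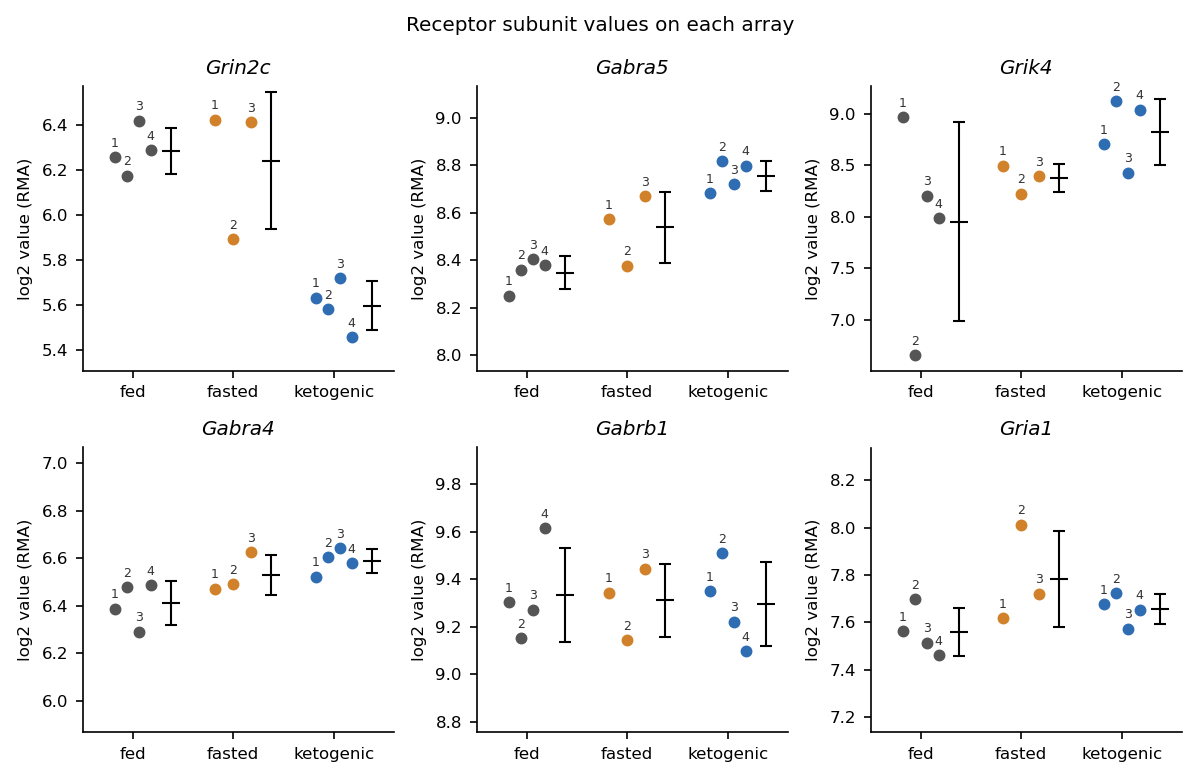
Log2 values of 6 receptor subunits on each array (y axis), by diet (x axis), with the array number above each point and the mean and SD of each group as a bar. The ketogenic arrays lie below all others for Grin2c and above all others for Gabra5, and fed array 2 is far below the rest for Grik4.

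Gabra5 encodes the alpha 5 subunit of GABA-A receptors that lie mostly outside synapses on hippocampal pyramidal neurons and carry tonic inhibition. Its value was 8.25, 8.36, 8.41 and 8.38 on fed arrays 1 to 4, 8.57, 8.38 and 8.67 on fasted arrays 1 to 3, and 8.68, 8.82, 8.72 and 8.80 on ketogenic arrays 1 to 4. All ketogenic arrays lay above all fed and fasted arrays, and the fasted arrays lay between them with fasted array 2 inside the fed range. The log2 difference of ketogenic from fed arrays was 0.41 (standard error 0.08, 95% interval 0.23 to 0.58, adjusted p = 0.041 from limma), and the exact permutation test gave its smallest p of 0.0286. Leaving out any 1 of the 8 fed and ketogenic arrays kept the difference between 0.37 and 0.43 but lost the call (adjusted p from 0.0659 to 0.141), while the call held without fed array 2 and fasted array 2 together (0.41, adjusted p = 0.0354 from limma). It was also lost with only the 2 groups in the fit (adjusted p = 0.0506 from limma) and in the methods' t-test (adjusted p = 0.0694). The fit with replicate number as a block lost the Gabra5 call too (adjusted p = 0.111 from limma).

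Most neuron markers were also higher on the ketogenic arrays, though none was called. The difference from the fed arrays was above 0 for 9 of 12 general neuron markers and below 0 for 3. It was above 0 for all 7 excitatory neuron markers and for 7 of 9 inhibitory neuron markers. The 7 measured markers of excitatory neurons had a mean of 8.01 to 8.07 on the ketogenic arrays against 7.65 to 7.90 on the fed arrays, with a median difference of 0.27, and the 12 general neuron markers had a median difference of 0.14. Centred on the general neuron markers, Gabra5 was at 0.26 and was not called (adjusted p = 0.233 from limma). Centred on the astrocyte markers it was at 0.90 and was 1 of 28 subunits called, in a setting that calls most genes higher. The part of the neuron markers in the Gabra5 result was not tested further.

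**Figure D2:**
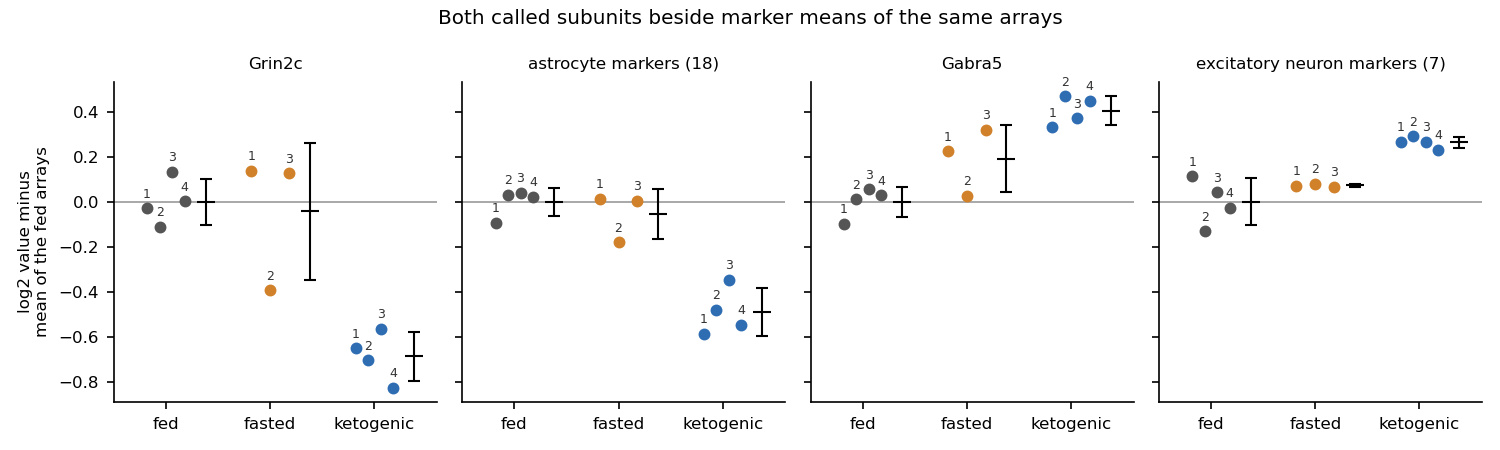
Log2 values of Grin2c, the mean of 18 astrocyte markers, Gabra5 and the mean of 7 excitatory neuron markers on each array, as the difference from the mean of the fed arrays (y axis), by diet (x axis), with array numbers above the points and the mean and SD of each group as a bar. Grin2c and the astrocyte markers are lowest on the ketogenic arrays and low on fasted array 2, and Gabra5 and the excitatory neuron markers are highest on the ketogenic arrays.

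The promoters of the 2 called genes are shown because the results turn on these genes, each as the 300 bases from 250 before to 50 after the RefSeq start on GRCm38.p6, printed along the minus strand on which both genes lie. Capitals mark the GC box letters GGGCGG in Grin2c (chr11:115267194-115267493) and the CCAAT box letters in Gabra5 (chr7:57510010-57510309).
Grin2c: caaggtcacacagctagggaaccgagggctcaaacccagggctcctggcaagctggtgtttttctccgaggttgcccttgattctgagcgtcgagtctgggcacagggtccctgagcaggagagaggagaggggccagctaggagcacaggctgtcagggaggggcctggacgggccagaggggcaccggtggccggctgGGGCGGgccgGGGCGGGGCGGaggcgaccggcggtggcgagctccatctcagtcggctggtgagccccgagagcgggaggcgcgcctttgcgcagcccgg
Gabra5: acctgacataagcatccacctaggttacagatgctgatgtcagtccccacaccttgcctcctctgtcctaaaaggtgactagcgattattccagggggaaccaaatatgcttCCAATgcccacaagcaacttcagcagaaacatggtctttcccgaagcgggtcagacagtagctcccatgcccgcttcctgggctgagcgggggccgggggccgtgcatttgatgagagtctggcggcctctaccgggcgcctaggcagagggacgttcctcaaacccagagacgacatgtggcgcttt
The Grin2c promoter had 70.0% G and C, 22 CpG and 3 GC boxes, of which 2 overlap in sequence, and the Gabra5 promoter had 56.7% G and C, 13 CpG, no GC box and 1 CCAAT box. Searched on both strands, GGGCGG was in 35.7% and CCAAT in 37.4% of the 32851 mouse promoters of the same length, whose median content of G and C was 52.7%. Among the 27 promoters listed for 23 of the 30 subunits each of these motifs was in 11, TATAAA was in 4 (13.6% of all promoters), and neither TGACGTCA (1.79%) nor CACGTG (7.15%) was in any. The 2 windows of Gabra3 overlap and both hold TATAAA and CCAAT, so these counts are of windows and not of separate genes. All these matches describe the letters of the windows, and binding was not measured.

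GABA-A receptor genes lie in clusters, and Gabra5 lies next to Gabrg3 on chromosome 7. Gabrg3, a gamma subunit, was at 4.86 to 5.10 on the fed and 4.82 to 5.08 on the ketogenic arrays, with a log2 difference of -0.03 (95% interval -0.21 to 0.14). In the cluster on chromosome 5, Gabra2, Gabra4 and Gabrb1 had differences of 0.15, 0.18 and -0.04. Gabra4, which forms extrasynaptic receptors with the delta subunit in the dentate gyrus, read 6.39, 6.48, 6.29 and 6.49 on the fed arrays and 6.52, 6.60, 6.64 and 6.58 on the ketogenic arrays. The 2 groups did not overlap, but the difference did not pass after adjustment (95% interval 0.02 to 0.33, adjusted p = 0.302 from limma). Gabrd, the delta subunit itself, read 5.83, 5.21, 5.54 and 5.70 on the fed arrays and 5.92, 5.78, 5.77 and 5.85 on the ketogenic arrays, a difference of 0.26 (adjusted p = 0.36 from limma) with fed array 1 inside the ketogenic range.

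Of the GABA-A subunits known from astrocytes, Gabra2 and Gabrb1 gave no call, and Gabrg1 was not analysed. Gabra2 read 6.53 to 6.91 on the fed, 6.41 to 7.01 on the fasted and 6.60 to 7.08 on the ketogenic arrays, and the 3 ranges overlapped. Its differences from the fed arrays were 0.15 (95% interval -0.20 to 0.50) on the ketogenic diet and 0.09 (-0.29 to 0.47) after fasting. Gabrb1 was at 9.15 to 9.61 on the fed, 9.14 to 9.44 on the fasted and 9.10 to 9.51 on the ketogenic arrays, with differences of -0.04 (-0.31 to 0.23) and -0.02 (-0.31 to 0.26). A difference as large as that of Gabra5 lay within the intervals of Gabra2 and outside those of Gabrb1. Gabrb2, a beta subunit found in most synaptic GABA-A receptors, was at 10.40 to 10.67 on the fed and 10.63 to 10.73 on the ketogenic arrays (0.14, adjusted p = 0.506 from limma), and its second probe set gave 0.20.

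Kainate receptor subunits had differences above 0 in 5 of 5 cases on the ketogenic diet, against 53.5% of all genes. Their median was 0.25, and none was called. Grik1, which lay below the odorant percentile, was at 0.04. With arrays centred on the neuron markers 3 of 5 were above 0, where the median of all genes was -0.14. Grik4, a subunit of CA3 pyramidal neurons, read 8.97, 6.65, 8.21 and 7.98 on fed arrays 1 to 4, 8.50, 8.23 and 8.40 on the fasted arrays, and 8.70, 9.12, 8.43 and 9.04 on the ketogenic arrays. Fed array 2 lay far below all other arrays, fed array 1 lay within the ketogenic range, and the groups overlapped. The difference of ketogenic from fed arrays was 0.87 (95% interval 0.03 to 1.71, adjusted p = 0.34 from limma), and 0.44 without fed array 2. A second, dimmer probe set of Grik4 read 5.77, 5.52, 5.76 and 5.85 on the fed and 6.20, 6.12, 5.97 and 6.16 on the ketogenic arrays, a difference of 0.39 with no overlap. Grik5, which joins other kainate subunits to raise their affinity, had a difference of 0.25 (adjusted p = 0.314 from limma), with 6.57 to 7.04 on the fed and 6.95 to 7.24 on the ketogenic arrays. Grik3, whose fed arrays ran from 6.04 to 7.07 with fed array 2 lowest, was at 0.26 and Grik2 at 0.12. Without fed array 2 the median of the 5 was 0.11.

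**Figure D3:**
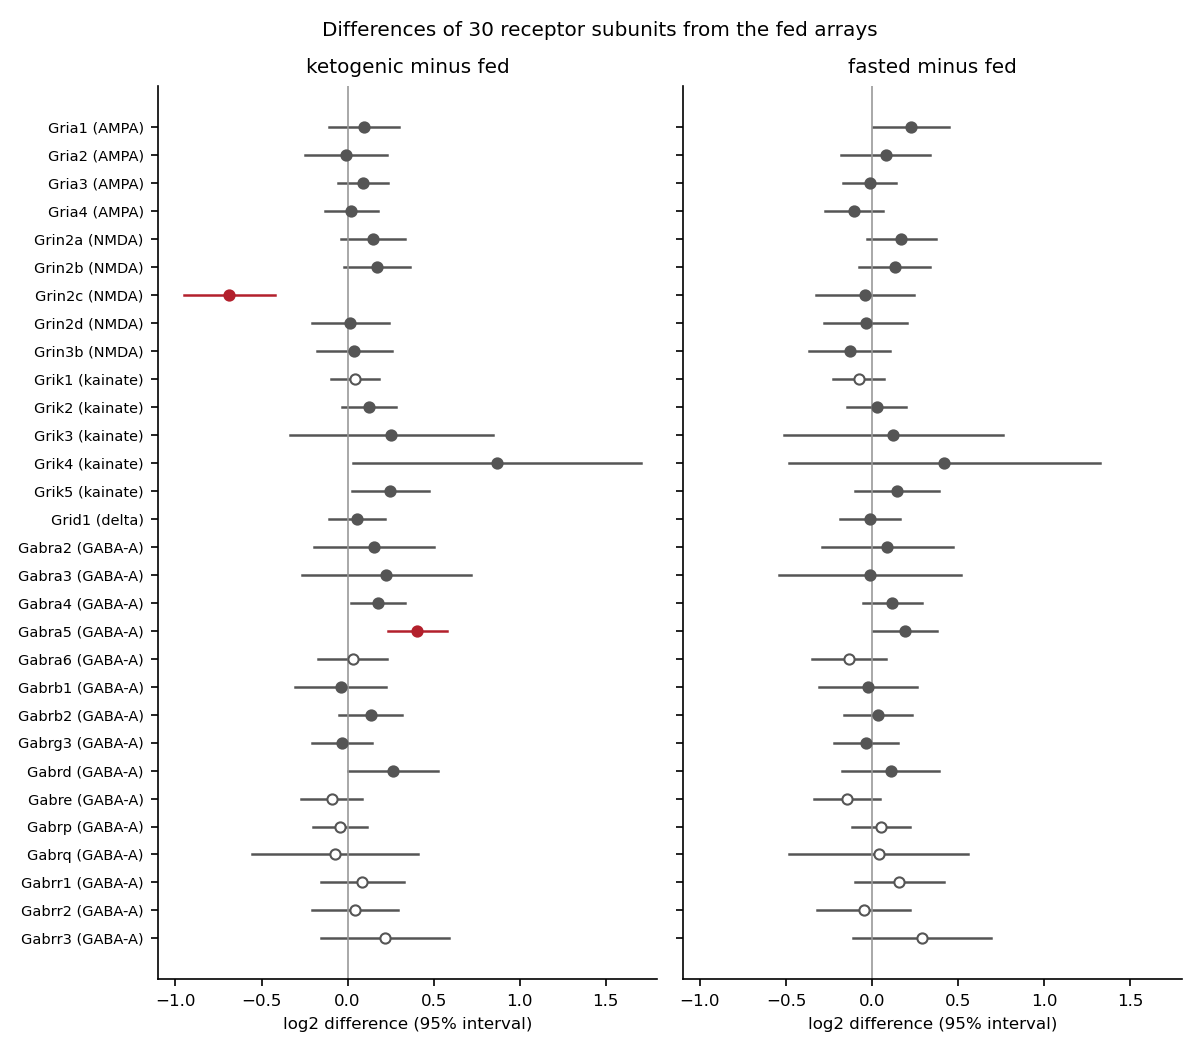
Log2 difference from the fed arrays (x axis) of each of the 30 subunits (y axis, with its family) for the ketogenic and the fasted arrays, with the 95% interval from limma. Grin2c and Gabra5 on the ketogenic diet, in red, are the 2 that passed the test, and open points mark subunits at or below the odorant receptor percentile on the fed arrays.

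No AMPA receptor subunit, the carriers of most fast excitation, passed the test. Gria2, the subunit that makes AMPA receptors impermeable to calcium, was at 6.75 to 7.15 on the fed and 6.79 to 7.02 on the ketogenic arrays, a difference of -0.01 (95% interval -0.25 to 0.23). Gria1, its main partner in hippocampal pyramidal neurons, had differences of 0.10 on the ketogenic diet and 0.22 after fasting, Gria3 of 0.09 and -0.01, and Gria4 of 0.02 and -0.11. The delta subunit Grid1, which binds cerebellins at synapses, was at 0.06 (95% interval -0.11 to 0.22) on the ketogenic diet.

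Over all 30 subunits the median difference of ketogenic from fed arrays was 0.09, against 0.01 for all genes, and 23 of 30 differences were above 0 (76.7%, against 53.5% of all genes). With arrays centred on the neuron markers the median turned to -0.06, against -0.14 for all genes, and 10 of 30 were above 0. Before adjustment, 4 subunits were higher at p under 0.05 (Gabra5, Gabra4, Grik5 and Grik4), where 7.39% of all genes were, and 1 was lower (Grin2c), where 6.53% of all genes were. The ketogenic arrays lay wholly above the fed arrays for 2 subunits (Gabra4 and Gabra5), as for 5.94% of all genes, and wholly below them for 1 (Grin2c), as for 4.74% of all genes. The shares of subunits were near these shares of all genes or rested on few subunits, and neither was tested as a list.

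After fasting the 30 subunits had a median difference of 0.04 from the fed arrays, against -0.02 for all genes, with 17 above 0, and none passed the test in limma or in the methods' t-test after adjustment. Leaving out 1 array moved the median between -0.01 (fed array 2 out) and 0.10 (fasted array 2 out), with 0.01 when fasted array 1 or 3 was out, and it was -0.07 with arrays centred on the neuron markers, where that of all genes was -0.12. Before adjustment Gria1 and Gabra5 were higher at p under 0.05, a side on which 2.26% of all genes lay, and no subunit was lower, against 4.82% of all genes. Gria1 read 7.56, 7.70, 7.51 and 7.46 on the fed and 7.62, 8.01 and 7.72 on the fasted arrays, a difference of 0.22 (standard error 0.10, adjusted p = 0.698 from limma). Fasted array 2 was the highest, and fed array 2 lay within the fasted range. Gabra5 had a difference of 0.19 after fasting (adjusted p = 0.698), and Grin2c one of -0.04 (95% interval -0.33 to 0.24). No subunit had fasted arrays wholly above or wholly below the fed arrays, where 2.16% and 4.27% of all genes did.

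The fasted and ketogenic arrays were compared directly because both other comparisons share the fed arrays. Grin2c had a difference of fasted from ketogenic arrays of 0.64 (standard error 0.13, adjusted p = 0.0814 from limma), which did not pass. Without fasted array 2, which had the lowest fasted value, the difference was 0.82 and passed (adjusted p = 0.0153 from limma). Gabra5 had a difference of -0.21 (adjusted p = 0.391 from limma). At p under 0.05 before adjustment 1 subunit was thus higher, beside 4.19% of all genes, and 1 lower, beside 6.43% of all genes, and the methods' t-test called none of the 30 after adjustment. The fasted arrays lay wholly above the ketogenic arrays for 1 subunit (Grin2c), as for 4.78% of all genes, and wholly below them for 4 (Gabra5, Gabra6, Gabrd and Grik1), as for 9.16% of all genes. Gabra6 and Grik1 among these were below the odorant percentile.

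**Figure D4:**
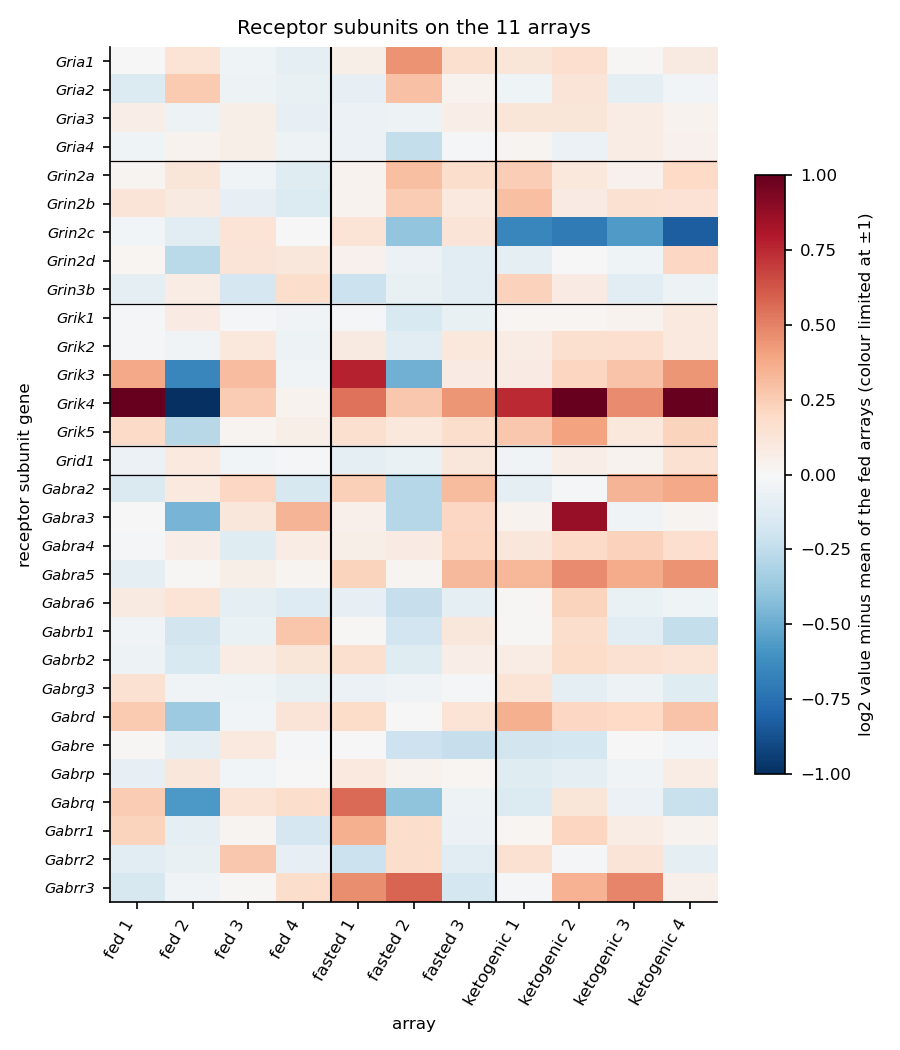
Log2 value of each of the 30 subunits (rows, ordered by family) on each of the 11 arrays (columns), as the difference from the mean of the fed arrays, with the colour limited at 1 log2 unit in either direction. Grin2c is blue on all ketogenic arrays and on fasted array 2, and Gabra5 is red on all ketogenic arrays. Grik4 is blue on fed array 2 and red on fed array 1 and on the fasted and ketogenic arrays. Grik3 is blue on fed array 2 and red on fasted array 1.

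The proteins that anchor and tune these receptors gave no call in any comparison, in limma or in the methods' t-test after adjustment. On the ketogenic diet 3 of 11 AMPA receptor auxiliary subunits were higher at an unadjusted p under 0.05, beside 7.39% of all genes. Their median was 0.33, 0.13 without fed array 2 and fasted array 2, and 0.18 with arrays centred on the neuron markers. Among them Cnih3, a cornichon that slows the closing of AMPA receptors, read 6.72, 6.47, 7.01 and 6.88 on the fed and 7.24, 7.30, 7.25 and 7.16 on the ketogenic arrays (0.47, adjusted p = 0.141 from limma). The ketogenic arrays lay wholly above the fed arrays for 4 of the 11 (Cnih3, Cacng8, Cacng3 and Cnih2), beside 5.94% of all genes. Cacng8, a TARP that brings AMPA receptors to the synapse, had a difference of 0.39 (adjusted p = 0.216 from limma). Of the 2 kainate receptor auxiliary subunits, Neto1 was at 0.37 (adjusted p = 0.196 from limma), again with no overlap, and Neto2, below the odorant percentile, at 0.01.

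Scaffolds of glutamate synapses had a median difference of 0.15 on the ketogenic diet. With arrays centred on the neuron markers it was 0.00 (9 of 17 above 0), where that of all genes was -0.14. It was 0.11 without fed array 2 and fasted array 2 (16 of 17 above 0). At an unadjusted p under 0.05, 6 of 17 were higher, beside 7.39% of all genes, and 1 was lower, beside 6.53%. Dlg4, which encodes PSD-95, was at 6.94, 6.44, 6.90 and 6.90 on the fed and 7.10, 7.16, 7.06 and 7.16 on the ketogenic arrays, and Homer3 had a difference of 0.25. The ketogenic arrays lay wholly above the fed arrays for 3 of the 17 (Dlg3, Dlg4 and Dlgap4), beside 5.94% of all genes. Dlg4 had a difference of 0.32 (adjusted p = 0.196 from limma). Homer1, whose short form is induced by neuronal activity, read 5.42, 5.22 and 5.52 on the fasted and 6.10, 5.87, 5.96 and 5.82 on the ketogenic arrays. The fasted arrays lay wholly below the ketogenic arrays for 3 of the 17 (Homer1, Homer2 and Dlg4), beside 9.16% of all genes. The Homer1 difference of -0.55 did not pass (adjusted p = 0.0982 from limma), while with array weights Homer1 was at -0.50 and passed (adjusted p = 0.0473 from limma). Homer2 was at -0.26 in that comparison. After fasting Dlgap2 and Homer1 had differences of 0.31 and -0.30 from the fed arrays (adjusted p = 0.687 from limma for both). Without fed array 2 and fasted array 2 Homer1 was at -0.13.

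**Figure D5:**
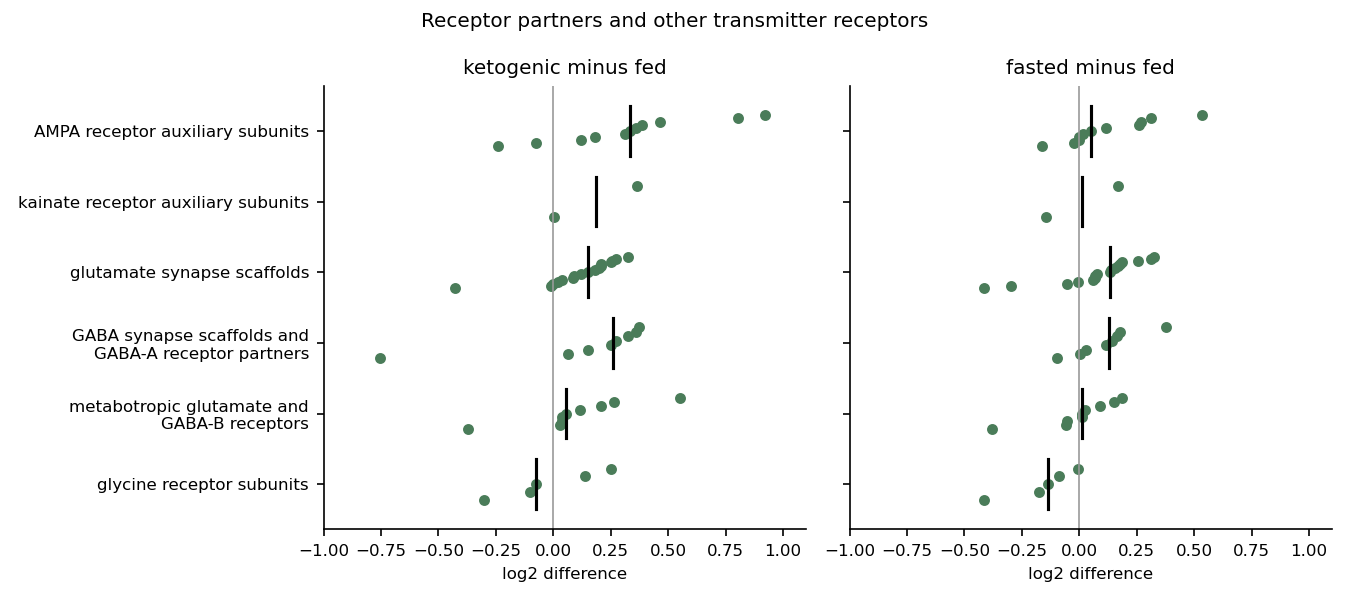
Log2 difference from the fed arrays (x axis) of the genes of 6 lists of receptor partners and other transmitter receptors (y axis), for the ketogenic and the fasted arrays. Each point is a gene and each black bar the median of its list, and no gene shown passed the test.

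Among 8 scaffolds and partners of GABA receptors the median difference on the ketogenic diet was 0.26, 0.12 without fed array 2 and fasted array 2, and 0.11 with arrays centred on the neuron markers. At an unadjusted p under 0.05, 3 were higher, beside 7.39% of all genes, and 1 was lower, beside 6.53%. Nlgn2, the neuroligin of inhibitory synapses, was at 0.33 (adjusted p = 0.196 from limma). It was the 1 partner whose ketogenic arrays lay wholly above the fed arrays, beside 5.94% of all genes. Gphn, which encodes the inhibitory scaffold gephyrin, varied widely, with 4.47, 5.73, 5.80 and 4.72 on the fed, 5.62, 4.96 and 4.95 on the fasted and 3.98, 4.35, 4.99 and 4.39 on the ketogenic arrays. Its groups overlapped, and its differences from the fed arrays were -0.75 and 0.00. Against the ketogenic arrays the fasted arrays were at 0.75 for Gphn and at -0.25 for Gabarap, a trafficking partner of GABA-A receptors. Iqsec3, a regulator of inhibitory synapses, was at 0.38 after fasting and Nlgn2 at 0.18.

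Metabotropic glutamate and GABA-B receptors, which act through G proteins, had a median difference of 0.05 on the ketogenic diet. With arrays centred on the neuron markers it was -0.10 (3 of 9 above 0), where that of all genes was -0.14. It was 0.09 without fed array 2 and fasted array 2 (7 of 9 above 0). At an unadjusted p under 0.05, 1 of 9 was higher and 1 lower, beside 7.39% and 6.53% of all genes. Grm3, a metabotropic receptor that astrocytes carry, read 5.62, 5.99, 5.77 and 5.72 on the fed, 5.40, 5.26 and 5.53 on the fasted and 5.43, 5.32, 5.57 and 5.30 on the ketogenic arrays. Both the fasted and the ketogenic arrays lay wholly below the fed arrays, beside 4.27% and 4.74% of all genes. The differences were -0.38 (adjusted p = 0.519) and -0.37 (adjusted p = 0.125 from limma), and they share the fed arrays. Gabbr2, a subunit of GABA-B receptors, was at 0.27 on the ketogenic diet and 0.15 after fasting. Its ketogenic arrays lay wholly above the fed arrays, beside 5.94% of all genes. Against the ketogenic arrays the fasted arrays were at -0.26 for Grm4 and -0.11 for Grm5. Of 5 glycine receptor subunits, 2 lay above the odorant percentile (Glra2 and Glrb), and Glra1, Glra3 and Glra4 lay below it. At an unadjusted p under 0.05 on the ketogenic diet 1 of the 5, Glra3, was higher (0.25), beside 7.39% of all genes. The median difference of the 5 was -0.07 on the ketogenic diet and -0.14 after fasting. Glra1 was at -0.30 on the ketogenic diet and -0.41 after fasting, and Glra4 at -0.18 after fasting. On the fasted against the ketogenic arrays Glra3 and Glra2 were at -0.26 and -0.27.

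After fasting the medians of these lists were 0.05 for AMPA receptor auxiliary subunits, 0.01 for kainate receptor auxiliary subunits, 0.13 for glutamate synapse scaffolds, 0.13 for GABA synapse partners and 0.01 for the metabotropic and GABA-B receptors. At an unadjusted p under 0.05, 1 scaffold was higher, 1 scaffold and 1 metabotropic receptor were lower, and the other 4 lists had none, beside 2.26% of all genes higher and 4.82% lower. Cacng8 and Cacng4 were at 0.26 and -0.16 after fasting, and Neto2 and Neto1 at -0.14 and 0.17. Between fasted and ketogenic arrays the AMPA receptor partners Cnih3 and Cnih2 were at -0.35 and -0.31, the one at an unadjusted p under 0.05 and the other not.

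Markers of other cells were read on the same arrays. On the ketogenic diet the median difference was 0.07 for 9 inhibitory neuron markers, -0.32 for 9 oligodendrocyte markers, -0.33 for 8 markers of oligodendrocyte precursors, 0.19 for 7 microglia markers and -0.29 for 8 endothelial and mural markers. Of these, 1 precursor marker and 1 endothelial or mural marker were called, both lower. After fasting no marker of any list was called, and the medians were -0.06 for astrocyte, 0.12 for neuron, 0.08 for excitatory neuron, 0.03 for inhibitory neuron, -0.32 for oligodendrocyte, -0.14 for oligodendrocyte precursor, 0.03 for microglia and 0.07 for endothelial and mural markers.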

How the data were processed

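Pull-down RNA of 11 hippocampal samples was amplified with a NuGEN Pico kit and, biotin-labelled, put on Affymetrix exon arrays of the mouse. The deposited values are log2 values that the authors made with RMA in Partek, which corrects background, equalizes the arrays' distributions and summarises probes. The log base is not given in the sources used here and was read as log2, and the submitters' notes name the build mm9. The table has 115830 probe sets, and GEO's platform annotation gives 1 gene symbol to 25539 of them, several to 2300 and none to 87991. Each of 20259 genes was read from 1 set, that of highest mean value. Group means of all 11 arrays were fitted in limma 3.58.1 (R 4.3.3), with Benjamini-Hochberg adjustment over all genes at 0.05. Exact permutation tests over arrays were two-sided. Correlations between arrays ran from 0.967 to 0.990, so no array was a copy of another. Where nothing says that samples of a diet came from separate animals, p-values measure only the spread between these samples. The members, lists, tests and alternatives were chosen with earlier results of these data known. Named subunits were those past the test, the 5 lowest p per comparison, and fixed lists of astrocytic and main hippocampal subunits. Partner genes were the 2 lowest p per list and comparison and any past the test. The scripts were tested on simulated data. Promoters came from RefSeq (GRCm38.p6). The number of arrays limits the precision.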

Additional observations from a re-analysis of the deposited data

Results flagged for a closer look

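In 60 sets of 4 arrays (30 subunits on the fed and on the ketogenic arrays), 4 had 1 array set apart from the other 3 by Dixon's criterion, where chance flags about 1 in 20. Gabra3, the alpha 3 subunit of GABA-A receptors, was at 8.16 on ketogenic array 2 against 7.26 to 7.33 on the other ketogenic arrays, and its second probe set was at 6.44 there against 6.18 to 6.31. The other 3 were at or below the level of odorant receptor genes. Grik1 was at 3.36 on fed array 2 against 3.24 to 3.26 on the other fed arrays, Gabrq was at 2.51 on fed array 2 against 3.22 to 3.34, and Gabrr2 was at 3.70 on fed array 3 against 3.32 to 3.36.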

How the results depend on the processing

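Both ketogenic calls held with the median over probe sets, without dim genes, with arrays centred on their median, with a variance trend, with array weights and without fed array 2 and fasted array 2. Of the 30 subunits, 2 were called on the ketogenic diet in the analysis as reported, 1 with arrays centred on neuron markers (Grin2c), 1 with only the 2 groups compared (Grin2c, with Gabra5 at adjusted p = 0.0506 from limma), 0 with the methods' t-test after adjustment (adjusted p = 0.0694 for both) and 28 with arrays centred on astrocyte markers. Leaving out 1 array left 0 to 1. Same-numbered arrays of different diets were not treated as paired, because the labels do not say that they share a litter or batch. The correlations of their deviations from the group means ran from -0.118 to 0.183, and not every array correlated best with its own number. With so few arrays per group these correlations cannot exclude a shared litter or batch. With replicate number as a block all the same, 0 were called, with Grin2c at adjusted p = 0.0575 and Gabra5 at 0.111 from limma. Between fasted and ketogenic arrays, 0 became 1 (Grin2c) with array weights (0.74, adjusted p = 0.0128 from limma), 1 without fed array 2 and fasted array 2, 0 to 1 without 1 array, and 24 with arrays centred on astrocyte markers, a setting that called 15731 of all genes in this comparison. After fasting, no subunit was called in any setting, the block included.

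Centring on astrocyte markers moved the median of all genes from 0.01 to 0.50 on the ketogenic diet and called 16797 genes higher and 50 lower, against 24 and 155, and centring on neuron markers gave 4 and 433. Under the former, among the subunits and the partner genes named by rule, differences of ketogenic from fed arrays that turned sign and passed were 0.48 for Gria2, 0.45 for Gabrb1, 0.46 for Gabrg3, 0.40 for Gabre, 0.45 for Gabrp, 0.25 for Cacng4 and 0.39 for Glra4. Between fasted and ketogenic arrays they were -0.35 for Gria2, -0.41 for Grin2a, -0.42 for Gabrb1, -0.34 for Gabrp, -0.36 for Gabrr1, -0.36 for Cacng4 and -0.40 for Dlgap2. A shift common to all genes is built into these settings.

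The 179 genes called on the ketogenic diet became 282 without dim genes, 387 with array weights, 79 with only the 2 groups, 12 with the methods' t-test, 1 with the block and 1 to 170 without 1 array. The 57 between fasted and ketogenic arrays became 88, 188, 34, 6, 6 and 8 to 61 in turn, and 23 with arrays centred on neuron markers. The 0 after fasting became 1 without fed array 3, without fasted array 2, or without fed array 2 and fasted array 2.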
